A study of Mus musculus with 36 samples.

Results

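The endoplasmic reticulum (ER) is the compartment in which secreted and membrane proteins, immunoglobulin chains among them, are folded. Hspa5 (BiP) and Hsp90b1 (Grp94) are its main chaperones, the protein disulphide isomerases Pdia4 and Pdia6 form and rearrange disulphide bonds, and the J-domain proteins Dnajb9 and Dnajb11 and their partner Sdf2l1 work with Hspa5. When unfolded protein builds up, the sensor Ern1 splices the Xbp1 messenger, the spliced form encodes an active transcription factor, and genes for chaperones and for ER-associated degradation are induced. In the B lineage this program is best known from plasma cells.

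Described here are 10 genes of this program, all of which were found by symbol among the 12762 genes of the table: Fkbp11, Xbp1, Hspa5, Hsp90b1, Pdia4, Pdia6, Sdf2l1, Dnajb9, Dnajb11 and Creld2. They were listed by name with earlier results of these data in view, in particular the low Fkbp11 of Ikaros cells at 24 h. Every 24 h value is therefore given as a description with no test, and the tests rest on the other times. Those times belong to the same course and share its batches, so their tests are not independent of that choice.

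The cells were the mouse pre-B cell line B3, carrying 1 of 2 retroviral constructs. In the Ikaros line an MSCV vector encodes haemagglutinin-tagged wild type Ikaros joined to the ERt2 hormone-binding domain of the estrogen receptor, followed by an IRES and GFP, so that 4-hydroxy-tamoxifen (4-OHT) carries the protein into the nucleus, and the control line carries the vector with ERt2 alone. Ikaros is thus supplied by a viral promoter on top of the copy the cells already express. Both lines were sampled at 0, 2, 6, 12, 18 and 24 h after 0.5 uM 4-OHT, with 3 libraries in each of the 12 groups and 36 in all. Libraries came from numbered culture batches, 1, 2 and 4 at 0 h and 1, 3 and 4 later. The labels list 4-OHT for every library, whereas the methods describe the 0 h cells as untreated and collected separately, so a comparison with 0 h also compares collections. Values are log2 expression after the authors' normalisation for GC content, gene length and library preparation. No counts were used, so the depth reached in each library is unknown, although the paper states a target depth. Having 3 libraries per group limits the precision. Fewer cells of a type and less RNA per cell cannot be told apart in such bulk samples.

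Ikzf1, the gene of Ikaros, lay higher in all 3 Ikaros libraries than in every control library at each time, by 5.19 to 6.26 on the log2 scale, as the line labels state. Of the pre-B markers, Cd79a, Cd79b, Ebf1, Pax5, Igll1 and Vpreb1 had mean levels between the 94.3 and 99.5 percentile of all genes. The plasma cell markers Prdm1, Sdc1, Jchain and Tnfrsf17 were not in the table, but Mzb1 and Derl3 were, at the 97.4 and 29.4 percentile. The T cell markers Cd3e, Cd3d and Cd3g, the fibroblast markers Col1a1, Col1a2 and Pdgfrb and the myeloid marker Csf1r were not in it. The myeloid markers Lyz2 and Itgam were at the 7.60 and 5.81 percentile. Lyz2 differed between the lines by 2.94 at 0 h and -2.06 at 18 h (limma, adjusted p = 0.000627 and 0.00242). Itgam differed by 4.52 at 18 h (adjusted p = 6.08e-08), whereas its -0.78 at 0 h did not pass (adjusted p = 0.487). The part of Lyz2 and Itgam in the results was not tested.

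Fkbp11 (ENSMUSG00000003355; GRCm38 chromosome 15, 98724366 to 98728198, reverse strand) encodes a membrane-anchored peptidyl-prolyl isomerase of the ER. It gave the largest difference between the lines of the 10 genes at 6, 12, 18 and 24 h. At 0 h its log2 expression was 12.46, 13.17 and 13.02 in the control libraries of batches 1, 2 and 4 and 12.43, 12.78 and 12.37 in the Ikaros libraries. At 2 h the control libraries of batches 1, 3 and 4 held 12.87, 12.83 and 13.42 and the Ikaros libraries 12.78, 12.35 and 13.19. The lines overlapped at both times, and the differences, -0.36 and -0.27 with an SE of 0.44, did not pass the test (adjusted p = 0.755 and 0.74).

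From 6 h on no Ikaros library reached the lowest control library for Fkbp11. At 6 h the control libraries held 13.48, 13.10 and 13.22 and the Ikaros libraries 10.80, 11.23 and 12.25 in batches 1, 3 and 4. The difference of -1.84 passed the test (adjusted p = 0.00177), although without the batch 1 cultures it was -1.42 with an adjusted p of 0.116. At 12 h the control libraries held 12.77, 13.08 and 13.23 and the Ikaros libraries 10.21, 10.02 and 7.96. The Ikaros library of batch 4 lay far below the other two at that time, and within batches the difference ran from -5.28 to -2.56 around a fitted value of -3.63 (SE 0.44, adjusted p = 1.64e-07).

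At 18 h Fkbp11 stood at 13.11, 13.43 and 13.64 in control cells and at 10.01, 9.85 and 9.11 in Ikaros cells. The means were 13.39 ± 0.26 and 9.66 ± 0.48 (SD, n = 3), a difference of -3.73 (SE 0.44, adjusted p = 4.98e-08) or 13.3-fold lower expression on a base 2 scale. Batch by batch the Ikaros culture was lower in all 3, by between -4.53 and -3.10. At 24 h the control libraries held 13.14, 13.02 and 13.66 and the Ikaros libraries 8.75, 9.88 and 8.30, a difference of -4.30 (SE 0.44). Within the Ikaros line the change of Fkbp11 from 0 to 6 h was -1.10 (SE 0.44, adjusted p = 0.0575), which passed with the 25th percentile filter (adjusted p = 0.0478) and without replicate 3 (-1.59, adjusted p = 0.00168). Against 0 h the change was -3.13 at 12 h (adjusted p = 1.94e-06) and -2.87 at 18 h (adjusted p = 4.04e-06). The steps between successive times, which were not tested, were -1.34 from 2 to 6 h and -2.03 from 6 to 12 h, each with no overlap of the libraries, and the libraries overlapped in the steps after 12 h.

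Xbp1 (ENSMUSG00000020484; chromosome 11, 5520659 to 5525893, forward strand), the transcription factor of the program, moved opposite to Fkbp11 and to most of the chaperones. Spliced and unspliced messengers are summed in a gene-level value, so these data hold nothing on the active form. At 0 h the control libraries held 12.66, 12.60 and 12.48 and the Ikaros libraries 13.21, 13.43 and 12.95. Xbp1 was thus higher in the Ikaros line before induction, by 0.62 (SE 0.12, adjusted p = 0.000858), with an adjusted p of 0.0533 without replicate 1 and 0.199 without replicate 2.

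At 2 h Xbp1 held 12.62, 12.54 and 12.76 in control cells and 13.51, 13.49 and 13.67 in Ikaros cells. At 18 h the control libraries held 12.71, 12.74 and 12.91 and the Ikaros libraries 13.94, 13.86 and 13.98. Every Ikaros library lay above every control library at all 6 times. The differences at 2, 6, 12 and 18 h were 0.92, 0.66, 0.90 and 1.14 (SE 0.12, adjusted p from 6.71e-09 to 0.000103), the last being 2.20-fold, and that at 24 h was 1.60.

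Measured from the difference already present at 0 h, Xbp1 gained 0.52 by 18 h (SE 0.17, adjusted p = 0.0148), a gain that did not pass without replicate 1 (0.45, adjusted p = 0.179) or replicate 2 (0.64, adjusted p = 0.0688). From 2 to 18 h the gain was 0.22 (SE 0.17, adjusted p = 0.302). Within the Ikaros line Xbp1 rose by 0.36 from 0 to 2 h (adjusted p = 0.0371), with adjusted p between 0.0949 and 0.313 when any 1 replicate was left out, and by 0.73 from 0 to 18 h (adjusted p = 1.04e-05). In the control line its group means kept between 12.56 and 12.79.

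**Figure D1:**
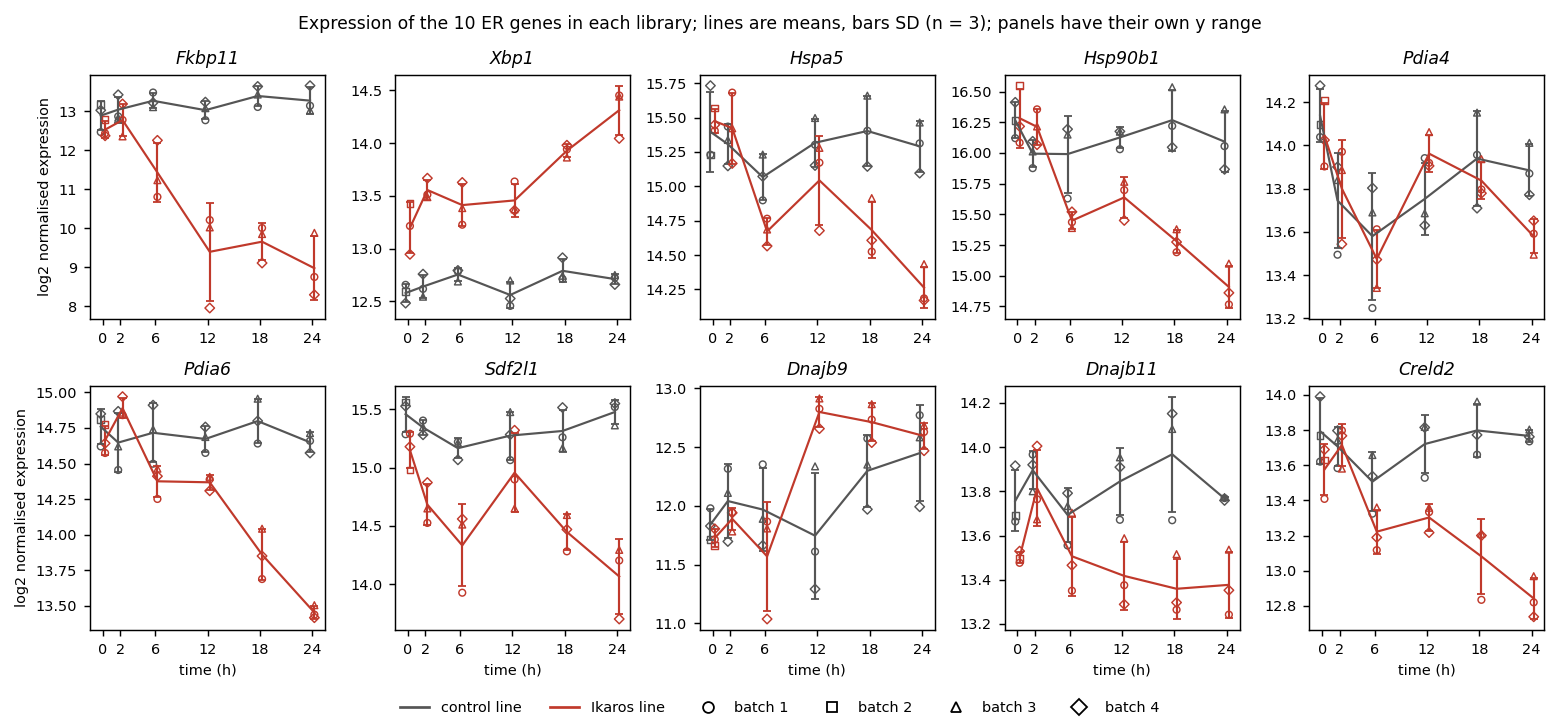
Log2 normalised expression of the 10 ER genes against time in hours, 1 panel a gene with its own y range, in the control line (grey) and the Ikaros line (red). Open symbols are single libraries by culture batch, lines join group means and bars are SD over 3 libraries. Fkbp11 of the Ikaros line goes from 12.53 at 0 h to 9.66 at 18 h, Xbp1 of the Ikaros line lies above control at every time, and the Pdia4 groups overlap at 18 h.

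The chaperones Hspa5 and Hsp90b1 and the isomerase Pdia6 had like courses in the Ikaros line. From 0 to 6 h they fell by 0.80, 0.83 and 0.29, the last call (Pdia6, adjusted p = 0.0481) being lost without any 1 replicate (adjusted p from 0.104 to 0.287), with quantile normalization (0.0569) and without the 24 h libraries (0.0723). The 12 h means differed from those at 6 h by 0.37, 0.19 and -0.01, and the 18 h means were the lowest before 24 h except for Hspa5, whose 6 and 18 h means were nearly equal. Hspa5 (ENSMUSG00000026864; chromosome 2, 34771970 to 34777547, forward strand), the ATP-dependent chaperone that binds unfolded chains, held at 0 h 15.23, 15.23 and 15.73 in control cells and 15.40, 15.57 and 15.45 in Ikaros cells. By 18 h the control libraries held 15.40, 15.66 and 15.14 and the Ikaros libraries 14.52, 14.91 and 14.61. The lines overlapped at 0 h and were apart at 18 h, when Hspa5 was lower in Ikaros cells by -0.72 (SE 0.17, adjusted p = 0.00064), or 1.65-fold.

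At 6 h the Hspa5 difference was -0.39 (adjusted p = 0.0669), which passed in a fit with a replicate block for batch (adjusted p = 0.0287), and at 12 h it was -0.27 (adjusted p = 0.191). Within the Ikaros line Hspa5 fell by 0.80 from 0 to 6 h (adjusted p = 0.00056) and by 0.79 from 0 to 18 h (adjusted p = 0.000267). In the control line at 6 h, the change was -0.33 (adjusted p = 0.199). The 24 h difference between the lines was -1.03 (SE 0.17).

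Hsp90b1 (ENSMUSG00000020048; chromosome 10, 86690209 to 86705509, reverse strand), the ER member of the Hsp90 family, held at 0 h 16.12, 16.27 and 16.41 in control cells and 16.08, 16.55 and 16.22 in Ikaros cells. By 18 h it held 16.22, 16.54 and 16.05 against 15.19, 15.38 and 15.27. The 18 h groups were apart, with a difference of -0.99 (SE 0.15, adjusted p = 3.39e-06), or 1.98-fold, and within batches between -1.16 and -0.77. It overlaps the pseudogene 1810014B01Rik on the opposite strand over 4598 bases and Gm15344 on its own strand over 977 bases. The paper describes strand-specific libraries, but the strand setting of the counting is not given in the sources used here. The level of Hsp90b1 is uncertain to that extent.

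Pdia6 (ENSMUSG00000020571; chromosome 12, 17266545 to 17284770, forward strand) held 14.64, 14.96 and 14.80 in control cells and 13.69, 14.04 and 13.85 in Ikaros cells at 18 h. The groups were apart, and the within-batch differences were the closest together among the 10 genes, from -0.95 to -0.91, around -0.94 (SE 0.11, adjusted p = 5.26e-08). At 2 h Pdia6 held 14.45, 14.62 and 14.87 in control cells and 14.84, 14.86 and 14.97 in Ikaros cells, a difference of 0.24 (adjusted p = 0.139). From 2 to 18 h the difference between the lines changed by -1.18 (SE 0.16, adjusted p = 1.15e-06).

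Pdia4 (ENSMUSG00000025823; chromosome 6, 47796141 to 47813430, reverse strand), the other disulphide isomerase, gave no tested difference between the lines. At 18 h the control libraries held 13.96, 14.15 and 13.71 and the Ikaros libraries 13.80, 13.94 and 13.78. The groups overlapped, the difference was -0.10 and its 95% interval ran from -0.39 to 0.19, which leaves room for a change of that size. At 2, 6 and 12 h the differences were 0.06, -0.11 and 0.21 (adjusted p from 0.238 to 0.842), and at 24 h -0.31 (SE 0.14). Pdia4 was lower at 6 h than at 0 h in both lines, by -0.57 in Ikaros cells (adjusted p = 0.00285, but -0.42 with 0.185 without replicate 2) and -0.56 in control cells (adjusted p = 0.0289), the latter not passing without any 1 of the 3 replicates (adjusted p from 0.0705 to 0.274).

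Sdf2l1 (ENSMUSG00000022769; chromosome 16, 17130138 to 17132383, reverse strand), a small ER protein that assists Hspa5 and its J-domain partners, was the only chaperone gene of the 10 with a tested difference at 2 h. It then held 15.40, 15.35 and 15.28 in control cells and 14.53, 14.65 and 14.87 in Ikaros cells. The groups were apart, and the difference of -0.66 (SE 0.17, adjusted p = 0.00702) had an adjusted p of 0.15 without replicate 1 and 0.119 without replicate 2. At 6 h it was -0.83 (adjusted p = 0.000407, and 0.062 without replicate 1).

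At 12 h Sdf2l1 held 15.06, 15.47 and 15.28 in control cells and 14.90, 14.65 and 15.32 in Ikaros cells. The groups overlapped through the batch 4 Ikaros library, and the difference was -0.32 (adjusted p = 0.136, and -0.50 with an adjusted p of 0.0434 without replicate 3, that is without batch 4). At 18 h Sdf2l1 held 15.26, 15.17 and 15.51 against 14.28, 14.59 and 14.47, a difference of -0.86 (SE 0.17, adjusted p = 0.000107). At 24 h the difference was -1.41 (SE 0.17).

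The J-domain genes differed from each other. Dnajb11 (ENSMUSG00000004460; chromosome 16, 22857845 to 22879634, forward strand), which delivers unfolded chains to Hspa5, held 13.67, 14.08 and 14.15 in control cells and 13.26, 13.52 and 13.30 in Ikaros cells at 18 h. The groups were apart and the difference was -0.61 (SE 0.12, adjusted p = 0.000138). At 0 h every Ikaros library already lay below every control library, with a difference of -0.26 (adjusted p = 0.26). From 0 to 18 h the difference changed by -0.35, which did not pass (adjusted p = 0.106). Dnajb11 shares 4652 bases with the antisense gene Gm30505, which is not in the table. Within the Ikaros line the change from 0 to 18 h was -0.14 (adjusted p = 0.345), and the control mean at 18 h, 13.97, was its highest of the 6 times.

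Dnajb9 (ENSMUSG00000014905; chromosome 12, 44205559 to 44210326, reverse strand), the J-domain protein ERdj4 known for its link to degradation and to Ern1, was the only gene besides Xbp1 called higher in Ikaros cells. At 6 h it held 12.35, 11.89 and 11.66 in control cells and 11.87, 11.81 and 11.04 in Ikaros cells. At 12 h the control libraries held 11.61, 12.34 and 11.29 and the Ikaros libraries 12.83, 12.91 and 12.66. The 12 h groups were apart, with a difference of 1.05 (SE 0.24, adjusted p = 0.000676), or 2.07-fold.

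At 18 h Dnajb9 held 12.57, 12.35 and 11.97 in control cells and 12.73, 12.87 and 12.54 in Ikaros cells. The groups overlapped, since the batch 1 control library lay above the batch 4 Ikaros library, and the difference was 0.41 with a 95% interval from -0.08 to 0.90 (adjusted p = 0.138, and 0.0409 with a replicate block kept separate at 0 h). Within the Ikaros line Dnajb9 rose by 1.07 from 0 to 12 h (adjusted p = 0.000592) and by 0.99 from 0 to 18 h (adjusted p = 0.000999). The control line changed by 0.46 from 0 to 18 h (adjusted p = 0.371).

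Creld2 (ENSMUSG00000023272; chromosome 15, 88819646 to 88826683, forward strand), an ER-resident protein induced by ER stress, held 13.66, 13.96 and 13.77 in control cells and 12.83, 13.21 and 13.20 in Ikaros cells at 18 h. The groups were apart, and the difference was -0.72 (SE 0.12, adjusted p = 1.2e-05). It was -0.28 at 6 h (adjusted p = 0.0648, and 0.023 with a replicate block) and -0.42 at 12 h (adjusted p = 0.00576, with 0.0879 without replicate 2 and 0.117 without replicate 3). At 24 h the difference was -0.92 (SE 0.12).

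Counted together, 1 of the 10 genes was called higher and 7 lower in Ikaros cells at 18 h, against 29.0% of all genes called higher and 29.2% called lower. The 0 h counts were 1 and 0 (4.61% and 3.72% of all genes), with 1 more lower at an unadjusted p under 0.05. No share of all genes was computed at that unadjusted threshold, here or below. The 2 h counts were 1 and 1 (9.18% and 9.88%), the 6 h counts 1 and 4 (18.1% and 19.2%), and the 12 h counts 2 and 5 (23.0% and 22.8%). The 24 h counts were 1 and 7, beside 31.0% and 31.9% of all genes, and nothing is read from them. At 6 h, 4 lower calls became 2 without any 1 replicate, and at 12 h, 5 became 3 without replicate 2 and 2 without replicate 3. The share of all genes called in those reduced fits was not computed.

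The median difference of the 10 genes was -0.11, 0.03, -0.37, -0.31 and -0.72 at 0, 2, 6, 12 and 18 h, where that of all genes was between -0.03 and -0.002, and -0.98 at 24 h. At 18 h 7 genes had every Ikaros library below every control library (32.4% of all genes) and Xbp1 had the reverse order (32.1%). The 18 h calls of Fkbp11, Xbp1, Hspa5, Hsp90b1, Pdia6, Sdf2l1, Dnajb11 and Creld2 passed in every alternative tried, the highest adjusted p being 0.0398 for Hspa5 without replicate 1.

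**Figure D2:**
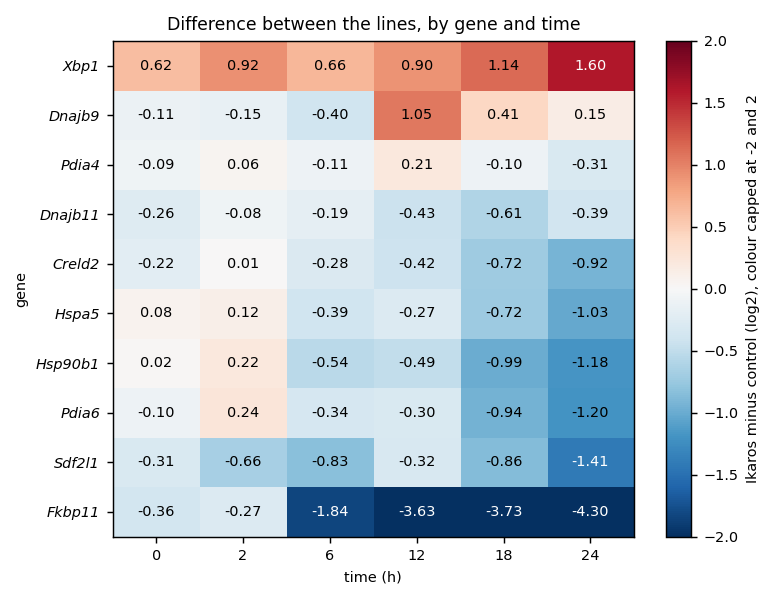
Ikaros minus control difference of group means on the log2 scale for each of the 10 ER genes (rows) at each time in hours (columns), printed in each cell and coloured from blue (lower in Ikaros cells) to red (higher), with colour capped at -2 and 2. Xbp1 is positive at all times, Dnajb9 is positive from 12 h, and Fkbp11 reaches -3.63 at 12 h; the 24 h column is a description.

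The change of the difference between the lines from 0 to 18 h sets aside what the lines differed in before induction. It was called downward for 5 genes (21.0% of all genes), Fkbp11, Hsp90b1, Pdia6, Hspa5 and Creld2, and upward for Xbp1 (22.0%). From 2 to 18 h, a span with no 0 h library, it was called downward for 6 genes (21.0%), the same 5 and Dnajb11, and upward for 0 (21.2%; also 0 at an unadjusted p under 0.05 with limma). Sdf2l1 changed by -0.56 from 0 h (adjusted p = 0.0664) and by -0.20 from 2 h (adjusted p = 0.526), its difference having been present at 2 h. Hspa5 lost both calls without replicate 1 or 2 (adjusted p from 0.0588 to 0.156), and without replicate 1 or 2 the downward count from 0 h was 3.

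Within the Ikaros line against its own 0 h, limma called 1 gene higher and 0 lower at 2 h (9.54% and 9.61% of all genes), and 2 and 1 at an unadjusted p under 0.05. The 6 h counts were 0 and 6 (17.1% and 15.6%), or 0 and 7 unadjusted. These shares are for adjusted calls, and the unadjusted counts have no share beside them. The 12 h counts were 1 and 4 (24.0% and 22.2%) and the 18 h counts 2 and 6 (28.1% and 26.5%). At 2 h Sdf2l1 changed by -0.47 (adjusted p = 0.0564, and 0.0497 with a replicate block), and Dnajb11 by 0.31 (adjusted p = 0.0736, and 0.0331 with the block kept separate at 0 h). At 12 h the block added Xbp1 (adjusted p = 0.0373) to the higher calls and Creld2 (adjusted p = 0.0199) to the lower ones. The 6 lower calls at 6 h were Hspa5, Hsp90b1, Pdia4, Pdia6, Sdf2l1 and Creld2, and became 3 without replicate 2, while the 4 at 12 h became 2 without replicate 2 or 3.

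In the control line, the background for drug and culture, limma called 0 of the 10 genes at 2, 12 and 18 h, where 0.0470%, 0.0549% and 0.478% of all genes were called in either direction. At an unadjusted p under 0.05 these counts were 1, 1 and 0, the gene being Pdia4 both times, with no share of all genes computed. At 6 h limma called Pdia4 (5.10% of all genes were called), and with a replicate block also Creld2 (adjusted p = 0.037), both lower. The Pdia4 control means at 0, 6 and 18 h were 14.14, 13.58 and 13.94.

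Over the 12 group means the pairs among the 7 genes other than Fkbp11, Xbp1 and Dnajb9 correlated with r between 0.17 and 0.98 (median 0.78, 21 pairs), the closest being Hspa5 with Hsp90b1. Xbp1 against those 7 gave r from -0.92 to -0.31. For Fkbp11 the values ran from 0.19 to 0.91 (median 0.87), and for Dnajb9 from -0.57 to 0.13. These are descriptions over means that share libraries and normalisation. The genes at or above the median level most like Fkbp11 over the same means were D19Bwg1357e (r = 0.990), Tac4 (0.989), Ccdc86 (0.988), Ash2l (0.988) and Mrpl47 (0.986), and those most like Xbp1 were Ccdc84 (0.982), Pex5 (0.980), Ssbp2 (0.976), Zfp68 (0.974) and Stat2 (0.973). None of these 10 is among the chaperones described. By r over the 6 Ikaros means alone, those for Fkbp11 ranked from 5 to 46 and those for Xbp1 from 1 to 73.

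The promoters were searched for the letters that the factors of the unfolded protein response, Atf6 and Xbp1, are known to bind. RefSeq promoters on GRCm38.p6, from 250 bases before to 50 after the start, matched all 10 genes in 11 windows. The ER stress element (ERSE, CCAAT and CCACG with 9 free bases between them, either strand) stood in 4 of the 10 genes, Hspa5, Hsp90b1, Pdia6 and Creld2, and in 0.119% of 32851 promoters. All 4 were called lower in Ikaros cells at 18 h, as were 3 of the 6 genes without the element, Fkbp11, Sdf2l1 and Dnajb11. Another 10 genes of the table hold the element, a set looked at after its values were seen. Of these, 3 were called higher at 18 h (Syvn1 by 1.21, Derl3 by 1.15 and Pan2 by 0.47) and 2 lower (Calr by -0.78 and Canx by -0.59), with a median difference of -0.07. The element is shown in each, on the strand of the gene with its fixed letters in capitals:
Hspa5 (chr2:34772020-34772048): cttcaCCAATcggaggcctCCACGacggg
Hsp90b1, distal (chr10:86705633-86705661, reverse strand): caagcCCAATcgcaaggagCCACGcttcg
Hsp90b1, proximal (chr10:86705528-86705556, reverse strand): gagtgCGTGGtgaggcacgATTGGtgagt
Pdia6 (chr12:17266486-17266514): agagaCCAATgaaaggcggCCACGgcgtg
Creld2 (chr15:88819515-88819543): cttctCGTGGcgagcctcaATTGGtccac

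The proximal Hsp90b1 and the Creld2 elements read on the opposite strand of their gene, hence CGTGG first. Counted from the RefSeq start, the elements begin 65 bases before it in Hspa5, 212 and 107 in Hsp90b1, 98 in Pdia6 and 126 in Creld2. The Hspa5 stretch falls inside the GENCODE gene, whose start is annotated further upstream, and the others lie upstream of theirs. Dnajb11 held the shorter ERSE-II (ATTGG and CCACG with 1 free base between them, in 0.0365% of promoters) just after its start, shown for its compact spacing:
Dnajb11 (chr16:22857847-22857867): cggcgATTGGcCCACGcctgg

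Neither element was found in the windows of Fkbp11, Xbp1, Pdia4, Sdf2l1 or Dnajb9, and the UPRE letters TGACGTGG were in none of the 10 (0.676% of promoters). The letters CCACG alone were in 9 of 10 genes and 32.8% of promoters, and CCAAT in 9 of 10 and 37.4%. A match is a description of letters and not of binding.

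The wider pathway was followed through 7 lists of genes chosen by known role, 127 of whose 134 genes were in the table. The chaperones described above are left out of them. Each 18 h count of the main fit stands beside the 29.0% of all genes called higher and 29.2% called lower. The lists did not move as one: genes of glycosylation and of the translocon were mostly lower where called, those of ER-associated degradation mostly higher.

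Of 23 further ER folding and redox enzymes 7 were called higher and 8 lower at 18 h, with a median difference of -0.17, and without replicate 1 or 2 there were 4 higher. Hyou1, a nucleotide exchange factor of Hspa5, stood at 14.64 ± 0.13 in control cells and 13.37 ± 0.17 in Ikaros cells (SD, n = 3), a difference of -1.27 (SE 0.12, adjusted p = 7.52e-10). The oxidase genes that recharge the isomerases parted, Ero1l being lower by -1.14 (adjusted p = 0.000189) and its relative Ero1lb higher by 1.27 (adjusted p = 2.19e-10). At 6 h the Ero1l difference had been positive, 1.14 (adjusted p = 0.000479). Ppib, an ER cyclophilin, was higher by 0.63 (adjusted p = 0.000354).

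Of 18 ER-associated degradation genes 11 were called higher and 2 lower, with a median of 0.43. Syvn1, the ubiquitin ligase Hrd1, stood at 15.00 ± 0.16 in control cells and 16.21 ± 0.10 in Ikaros cells, a difference of 1.21 (SE 0.11, adjusted p = 6.62e-10). Edem3, which trims mannose from misfolded glycoproteins, was higher by 1.44 (adjusted p = 4.87e-05), and Derl2 and Ube2g2 were lower by -0.33 and -0.31, with 0 lower calls left without replicate 2 and 1 without replicate 1 or 3. The Syvn1 difference was 0.05 at 6 h (adjusted p = 0.759) and 0.84 at 12 h (adjusted p = 8.19e-07), the time at which Dnajb9 was also called higher.

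N-glycosylation gave 13 lower and 1 higher of 22, with a median of -0.38. Mogs, the glucosidase that starts glycan trimming, was lower by -1.63 (SE 0.14, adjusted p = 1.39e-10) and Alg5 by -1.14 (adjusted p = 1.08e-06). The highest differences on this list, Dpm3 at 0.41 and Ganab at 0.38, did not pass (adjusted p = 0.264 and 0.0607). With a replicate block 2 genes were called higher, and without replicate 1 or 2 there were 0.

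Translocon and signal peptide genes gave 10 lower and 3 higher of 22, with a median of -0.29. Srprb, a subunit of the signal recognition particle receptor, was lower by -1.21 (adjusted p = 5.55e-05) and Ssr4 by -1.08 (adjusted p = 1.96e-07), while Tram1 was higher by 1.25 (adjusted p = 4.96e-09) and Sec11c by 0.56 (adjusted p = 0.00469). COPII export and KDEL retrieval genes gave 4 higher and 4 lower of 19, with a median of -0.05, but 1 and 1 without replicate 2 and 2 lower without replicate 1. Sec23a and Sec24c, coat subunits, were higher by 1.01 and 0.76, the cargo receptor Lman1 was lower by -0.96 (adjusted p = 0.000388), and Sec24a at -0.37 did not pass.

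Among 14 sensors and factors of the unfolded protein response 7 were called higher and 3 lower, with a median of 0.07. Ern1, the kinase and endonuclease that splices Xbp1, stood at 10.38 ± 0.42 in control cells and 12.30 ± 0.18 in Ikaros cells at 18 h, a difference of 1.92 (SE 0.23, adjusted p = 4.9e-08). Wfs1, an ER membrane protein, was higher by 2.99 (adjusted p = 3.91e-08) from a low level, after 1.02 at 0 h (adjusted p = 0.0717). Trib3 and Ppp1r15a, targets of the stress factors Atf4 and Ddit3, were lower by -3.50 (adjusted p = 3.38e-13) and -1.18 (adjusted p = 0.00906). At 12 h Trib3 was lower by -1.69 (adjusted p = 4.41e-07).

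**Figure D3:**
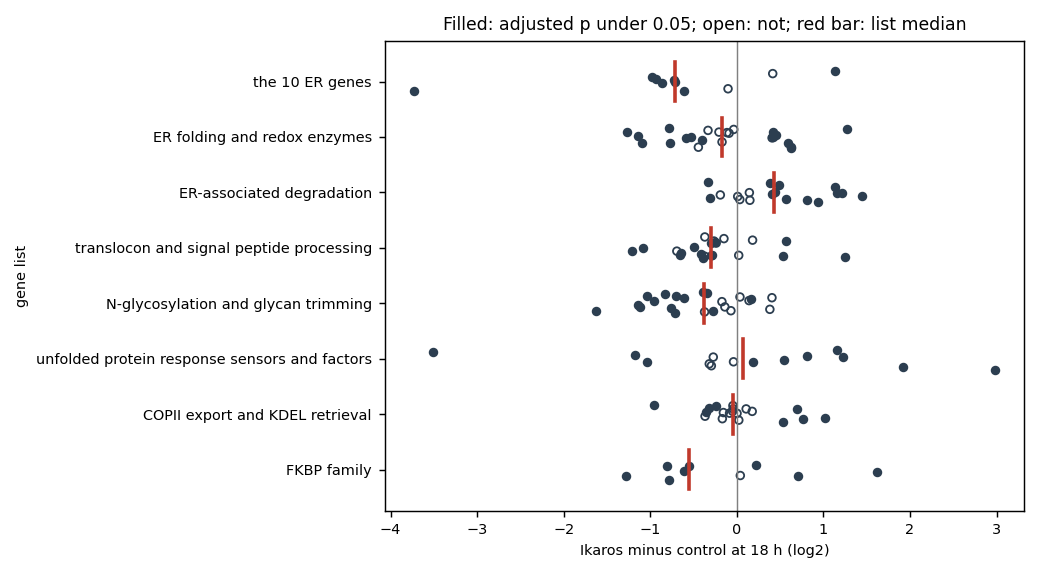
Ikaros minus control difference at 18 h (log2, x axis) of single genes in the 10 ER genes and in each of 7 pathway lists (rows), filled where the adjusted p was under 0.05 and open otherwise, with a red bar at the median of the row. The medians run from -0.72 for the 10 ER genes to 0.43 for ER-associated degradation, and the far left points are Fkbp11 at -3.73 and Trib3 at -3.50.

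Fkbp11 can be set against 9 further FKBP genes, of which 5 were called lower and 3 higher at 18 h with a median of -0.56, the 3 becoming 1 without replicate 1 or 2. Fkbp5, a co-chaperone of cytosolic Hsp90, was lower by -1.28 (SE 0.11, adjusted p = 1.27e-10), after -0.51 at 0 h (adjusted p = 0.00257), and the ER isomerase Fkbp2 by -0.80 (adjusted p = 0.00212). Fkbpl was higher by 1.62 (adjusted p = 2.48e-10) and Fkbp7, another ER member, by 0.71 (adjusted p = 0.0386). None of the 9 had a difference at 18 h below that of Fkbp5. Fkbp11 at -3.73 lay outside their range, but its low level was known when it was listed, so this is a description. Fkbp9, Fkbp10 and Fkbp14 of the list were not in the table.

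**Figure D4:**
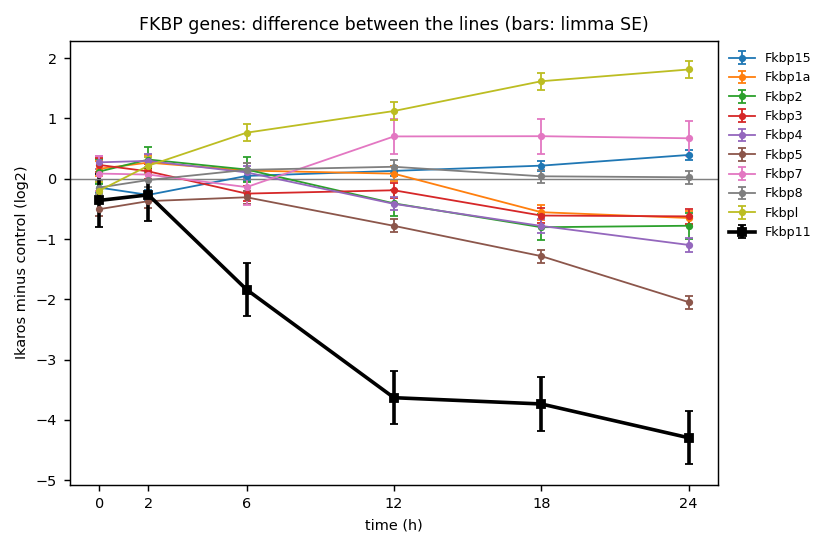
Ikaros minus control difference (log2) of Fkbp11 (black) and 9 further FKBP genes (coloured) against time in hours, with bars of 1 limma SE. Fkbp11 leaves the range of the 9 genes at 6 h with -1.84 and stays below it, while Fkbpl reaches 1.62 at 18 h.

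The heavy chain encoded by Ighm is the classical client of Hspa5. Ighm lay above control at 6, 12 and 18 h by 0.90, 1.24 and 1.48 (adjusted p from 8.92e-08 to 0.000316). The Hspa5 differences at these times were -0.39, -0.27 and -0.72, of which limma without a replicate block called only the last. The 2 plasma cell markers in the table differed from each other at 18 h, Derl3 by 1.15 (adjusted p = 0.000186) and Mzb1 by 0.15 (adjusted p = 0.197).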

How the data were processed

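Messenger RNA of B3 cells was sequenced in 36 libraries. As described in the study's methods and labels, the authors trimmed reads, aligned them to mm10 with TopHat2 keeping unique best hits, counted them per gene with HTSeq, normalised with cqn and adjusted for library preparation with ComBat. The deposited values are on a log2 scale with a constant added so that the lowest is 1. The base of the logarithm is not stated in the table, and folds assume base 2. The libraries were strand-specific, but strand setting and annotation of the counting are not given in the sources used here. Adjustment before deposition may make standard errors too small.

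In R 4.3.3, limma 3.58.1 was run over all 12762 genes and 36 libraries, with 12 group means and 24 residual degrees of freedom. P-values are two-sided, adjusted by Benjamini-Hochberg over all genes within each contrast, and called under 0.05. The fit was tested on simulated data. The 10 genes, the 7 pathway lists and the alternatives were chosen with earlier results of these data known. Named genes were the 10, Ikzf1, Ighm, the cell type markers, the 2 highest and 2 lowest of each list at 18 h, and the 5 genes most like Fkbp11 and like Xbp1. A lineage marker is not reported here. Positions come from GENCODE mouse release 21 on GRCm38, promoters from RefSeq.

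The batch number in the labels is shared by the 2 lines grown together, so the numbers pair libraries. Over 18 pairs the deviations from group means correlated between -0.062 and 0.507 (median 0.127), with 12 above 0.1. Replicates 1 and 3 are batches 1 and 4, and replicate 2 is batch 2 at 0 h and batch 3 later. Alternatives were the batch as a replicate block, the block kept separate at 0 h, a filter at the 25th percentile of mean level, quantile normalization, trend and robust eBayes, fits of only the compared groups, a fit without the 24 h libraries, a log2 threshold of 1 for the lists, and fits without each replicate.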

Additional observations from a re-analysis of the deposited data

Results flagged for a closer look

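The change of the difference between the lines from an early time to 18 h was tested by limma's contrast of 4 groups. From 0 h it was called downward for 5 of the 10 genes and upward for 1, beside 21.0% and 22.0% of all genes. It changed by -3.38 for Fkbp11 (SE 0.62, adjusted p = 8.04e-05), by -1.002 for Hsp90b1 (SE 0.21, adjusted p = 0.000426), by -0.84 for Pdia6 (SE 0.16, adjusted p = 9.01e-05), by -0.80 for Hspa5 (SE 0.24, adjusted p = 0.00803), by -0.50 for Creld2 (SE 0.17, adjusted p = 0.0195) and by 0.52 for Xbp1 (SE 0.17, adjusted p = 0.0148). Creld2 did not pass without replicate 1 (adjusted p = 0.0668) or 2 (adjusted p = 0.196). Hspa5 and Xbp1 did not pass without replicate 1 or 2 either.

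From 2 h it was called for 6 of the 10 genes, each downward, beside 21.0% of all genes called downward. It changed by -3.47 for Fkbp11 (SE 0.62, adjusted p = 6.94e-05), by -1.20 for Hsp90b1 (SE 0.21, adjusted p = 6.01e-05), by -1.18 for Pdia6 (SE 0.16, adjusted p = 1.15e-06), by -0.84 for Hspa5 (SE 0.24, adjusted p = 0.00603), by -0.72 for Creld2 (SE 0.17, adjusted p = 0.00119) and by -0.53 for Dnajb11 (SE 0.17, adjusted p = 0.0169). Dnajb11 did not pass without replicate 2 (adjusted p = 0.0861) or 3 (adjusted p = 0.274).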

How the results depend on the processing

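At 18 h the 8 called differences between the lines kept direction and call in every alternative, and no result reversed. Earlier and smaller calls moved. Leaving out 1 replicate at a time gave 0 to 1 of the 10 genes called higher at 0 h and 0 to 1 lower at 2 h, 2 lower at 6 h in each case and 2 to 5 lower at 12 h. For the change from 0 to 18 h it gave 0 to 1 upward and 3 to 5 downward. For the Ikaros line against 0 h it gave 0 higher at 2 h, 3 to 5 lower at 6 h and 2 to 4 lower at 12 h, and for the control line at 6 h 0 lower. Fits of only the compared groups gave 2 lower at 6 h, 2 lower at 12 h, and, within lines, 0 higher at 2 h, 2 lower at 12 h and 0 lower in control cells at 6 h. The Sdf2l1 call made 1 lower at 2 h in the Ikaros line with the replicate block, the 25th percentile filter and the trend and robust eBayes. The replicate block gave 2 higher at 12 h in the Ikaros line and 2 lower at 6 h in control cells. The block kept separate at 0 h gave 2 higher at 18 h, 2 higher at 2 h in the Ikaros line and 2 lower at 6 h in control cells. Apart from these and the calls given beside their genes, the block changed no other call of the 10 genes. Shares of all genes called were computed for the main fit only, so counts in the alternatives have no background beside them. Whether fewer calls are particular to these genes was not tested. The causes of the moved calls were not tested.

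Of the lists at 18 h, folding enzymes gave 4 higher in only the compared groups, and 4 to 8 without a replicate. Degradation gave 0 lower in only the compared groups, and 0 to 1 without a replicate. The translocon gave 6 lower in only the compared groups. Glycosylation gave 2 higher with either replicate block, 0 in only the compared groups, and 0 to 1 without a replicate. COPII export gave 2 lower in only the compared groups, and 1 to 5 higher and 1 to 6 lower without a replicate. The FKBP family gave 1 higher in only the compared groups, and 1 to 2 without a replicate. With a log2 difference of at least 1 required, the counts higher and lower were 1 and 3 for folding, 4 and 0 for degradation, 1 and 2 for the translocon, 0 and 4 for glycosylation, 4 and 3 for sensors and factors, 1 and 0 for COPII export and 1 and 1 for the FKBP family. No share of all genes was computed at that log2 threshold, so these last counts have no background beside them. Depth is unknown from these values, and 3 libraries per group limit what could be detected.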
